A study of Mus musculus with 45 samples.

Results

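Gene expression in mouse cortical cells was compared between E16.5 and E14.5, from RNA taken at the end of metabolic labelling (0 h of chase). The comparison rests on 6 libraries, replicates A, B and C of each stage. A gene was included where its exons carried more than 500 covered T positions in all 6 libraries, which held for 13164 of the 53491 genes listed. Every replicate was a pool of wild-type (WT) cortical tissue from 2 embryos, trypsinized for 10 min at E14.5 and 20 min at E16.5. Dissociated cells were plated in neural progenitor medium with bFGF, left to attach for 2 h, and kept with 100 uM 4-thiouridine (4sU, a uridine analogue that enters new RNA) for 20 h before lysis at 0 h. The libraries therefore describe cells after about a day in a growth factor that favours proliferation, not tissue, and the E14.5 and E16.5 pools differ in dissociation time as well as in age. Letters shared between stages mark different embryos. Values below follow the order A, B, C.

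The cortex makes its neurons from apical progenitors, the radial glia that line the ventricle, largely by way of intermediate progenitors that divide in turn. Deep-layer neurons are born first and upper-layer neurons after them, while inhibitory interneurons migrate in from the ganglionic eminences of the ventral forebrain. Towards the end of neurogenesis the remaining progenitors start to give rise to astrocytes and to precursors of oligodendrocytes. New neurons extend axons, take on ion channels and neurotransmitter receptors and begin to form synapses during the same days.

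The files held 23994465 (E16.5 A) to 42989039 (E14.5 A) reads per library, or 341545236 to 621367437 covered Ts, and 23566 to 25000 genes had a read. Library B of E16.5 stood apart from the other 5. The choroid plexus, an epithelium next to the cortex that secretes cerebrospinal fluid, is marked by Ttr (transthyretin), which reached 310.2 cpm (reads scaled to each library's total) in E16.5 B and at most 0.134 cpm elsewhere. All 5 wells of that pool showed it, at 279 to 392 cpm, against at most 0.134 cpm in the 25 wells of the other 5 pools. Folr1, Clic6 and Otx2, further choroid plexus genes, and the fibroblast genes Col1a1, Col1a2 and Ogn were likewise highest in E16.5 B. Counts below include it. Without it, the 38 gene lists each changed by at most 2 members in a count of calls, 17 lists not at all, and single genes whose call rested on it are marked. The T-to-C conversion rate at 0 h, a measure of label in RNA, was 1.10% ± 0.0763 at E14.5 and 1.86% ± 0.0573 at E16.5 (SD, n = 3 each) and so differed between the stages. Its part in the results was not tested. Cortical identity was checked with Pax6 (50.7, 47.7 and 49.0 cpm at E14.5 and 29.0, 30.5 and 25.5 cpm at E16.5) and Tbr1 (299.6, 285 and 258 cpm at E14.5 and 354, 374 and 338 cpm at E16.5), which were present in all 6 libraries.

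A gene was called higher or lower at an adjusted p under 0.05 and a fold change over 2 (edgeR quasi-likelihood test, Benjamini-Hochberg adjustment over 19416 genes tested). Positive log2 fold changes mean higher at E16.5. Below, "rose" and "fell" are used of genes past the adjusted p alone, and "called" of those that also passed the fold threshold. Of the 13164 genes, 722 (5.48%) were called higher and 657 (4.99%) called lower. At the adjusted p alone, 3615 (27.5%) rose and 4120 (31.3%) fell, so that small differences were common. The middle of the distribution was narrow, with a median log2 fold change of -0.02 and central 50% of genes between -0.36 and 0.31. Large changes were more often upward, since 113 genes called higher and 30 called lower exceeded 4-fold. Replicates did not overlap between stages for 719 of the 722 and 655 of the 657, against 70.6% of all included genes. Without E16.5 B, 692 of the genes called higher and 630 of those called lower kept their call.

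By gene type, protein-coding genes made up 678 of the genes called higher (6.02% of that type) and 542 of those called lower (4.81%). Among 1362 pseudogenes, 11 were called higher (0.808%) and 86 called lower (6.31%). Their reads can belong to a parent gene of nearly the same sequence, and how the counting divided such reads is not given in the sources used here. Another 305 genes were long noncoding RNAs, with 26 called higher (8.52%) and 18 called lower (5.90%).

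The threshold of 500 covered Ts left out genes near 0 at one stage, however high they were at the other. Trpc4, the largest riser, lay just inside it with 502 in its lowest library, and so did Tmem63a with 503 (2.17, 2.18 and 2.12 cpm at E14.5 and 1.29, 1.45 and 1.09 cpm at E16.5). Just outside lay Dsp and Lrtm2, each with 500 in its lowest library, at 1.55 and 1.24 cpm on average at E14.5 and 3.05 and 2.26 cpm at E16.5.

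**Figure D1:**
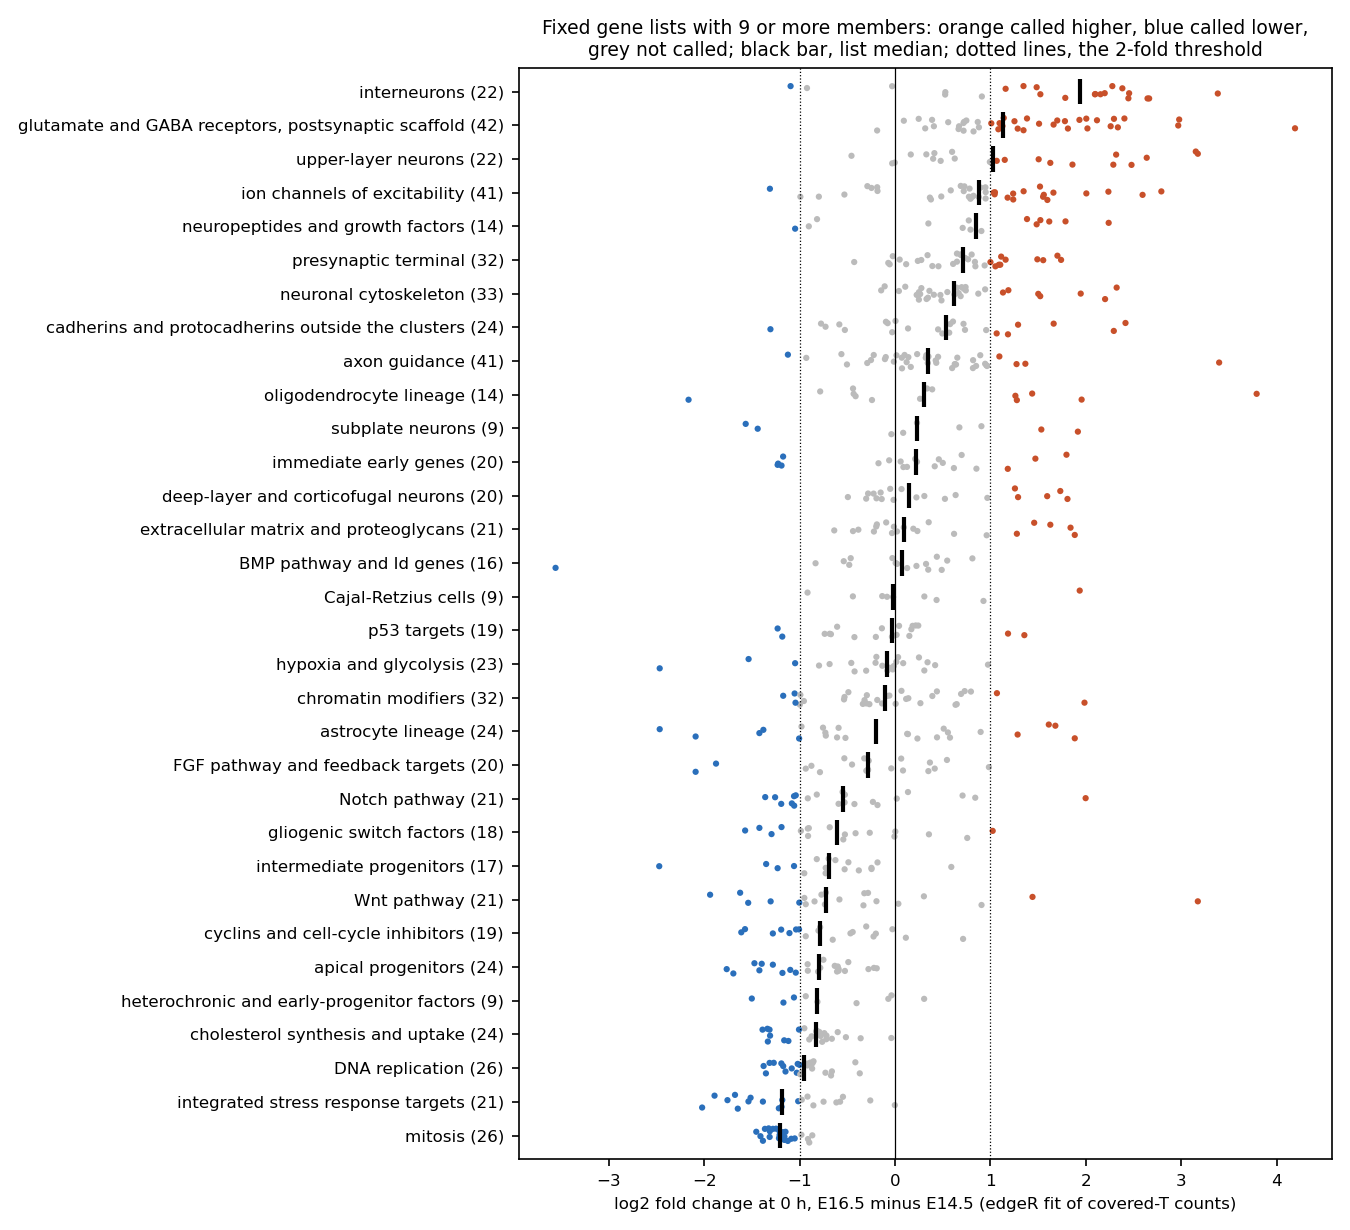
Log2 fold change at 0 h (x axis, E16.5 minus E14.5) of the members of each fixed gene list with 9 or more members (y axis, number of members in brackets). Points are genes, coloured by call, and black bars are list medians, which run from -1.21 for mitosis genes to 1.94 for interneuron genes.

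Genes of the dividing cell were lower at E16.5 in every phase represented. The mitosis list covers the spindle, the kinetochore and the cyclins and kinases that drive entry into M phase. All 26 members fell, 22 of them called lower against 4.99% of all included genes, with a median log2 fold change of -1.21. Cdk1, the kinase that triggers mitosis, was measured at 158, 157 and 175 cpm at E14.5 and 59.4, 63.8 and 58.5 cpm at E16.5. Every E16.5 library was below every E14.5 library (log2 fold change -1.38 ± 0.06 (SE), adjusted p = 3.99e-08). Top2a, the topoisomerase that untangles sister chromatids, read 397, 416 and 490.1 cpm at E14.5 and 173, 188 and 163 cpm at E16.5, again with every E16.5 library below every E14.5 library (log2 fold change -1.28 ± 0.09 (SE), adjusted p = 3.67e-07). The kinetochore kinase Bub1 fell most of this list (-1.45), followed by the kinetochore motor Cenpe (-1.41). Cyclin B1 (Ccnb1), partner of Cdk1, changed by -1.36. Mki67, the proliferation marker Ki-67, fell by less than 2-fold (146, 173 and 189.6 cpm at E14.5 and 81.4, 102 and 91.1 cpm at E16.5, log2 fold change -0.87 ± 0.13 (SE), adjusted p = 1.43e-04).

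Replication genes followed. All 26 members of that list fell, 11 called lower, with a median of -0.96. Cdc45, which activates the replicative helicase, had the largest change (32.5 ± 3.98 to 12.1 ± 1.54 cpm, mean ± SD, n = 3 each, log2 fold change -1.38 ± 0.11 (SE), adjusted p = 1.06e-06). Mcm3, a subunit of that helicase, fell from 182 ± 9.37 to 69.8 ± 6.57 cpm (-1.35). Enzymes that supply DNA precursors fell as well, with Rrm2 at -1.32, Tyms at -1.27 and Rrm1 at -0.99. Of 19 cyclins, their kinases and inhibitors, 7 were called lower and 0 higher. Ccnd2, the D-type cyclin of cortical progenitors (GRCm38 chr6:127125162-127152193, minus strand), gave 1836, 2103 and 1991 cpm at E14.5 and 620.0, 698 and 594 cpm at E16.5. Its stages did not overlap (log2 fold change -1.61 ± 0.08 (SE), adjusted p = 3.99e-08). E2f2 (-1.28), a transcription factor of S-phase entry, and the kinase gene Cdk2 (-1.19) were also called lower. Ccne2 changed by -1.57, but 17.4% of its exonic bases lie in another gene, which makes its reads less certain.

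Promoters of these lists were searched for short sequences already described for genes of this kind. The shares describe which genes the lists hold, and their relation to the fall was not tested. Windows of 250 bases before to 50 after the start of each gene were taken from RefSeq (GRCm38.p6), 1 window a gene. A window was available for 22 of the 26 mitosis genes and 22 of the 26 replication genes, and for 27025 genes in all. The cell-cycle homology region, which is found at genes of late cell cycle, was searched as TTTGAA, and E2F sites as TTTNNCGC, on both strands. Neither pattern lies inside the other. TTTGAA was in 17 of 22 mitosis windows (77.3%), 3 of 22 replication windows (13.6%), 18.1% of all windows and 11.2% of the 9238 windows of included genes. TTTNNCGC was in 10 of 22 replication windows (45.5%), 1 of 22 mitosis windows (4.55%), 5.27% of all windows and 8.96% of those of included genes. CCAAT was in 20 of 22 mitosis windows (90.9%), 13 of 22 replication windows (59.1%) and 39.3% of those of included genes. CCAAT was also in 15 of 17 windows of cholesterol genes (88.2%) and 12 of 20 windows of the stress response targets described below. High shares of CCAAT were thus not limited to the cell-cycle lists. A further pattern, TCACNCCAC, was in 1 of 17 windows of cholesterol genes (5.88%). It was in 1.22% of all windows and 0.985% of those of included genes. A match is a description of letters and was not measured here as a bound site. Members not called lower held the patterns too, among them Mki67 (-0.87) and Rfc3 (-0.37). Sites of members called lower are given below 5′ to 3′ with the pattern in capitals.
Cdk1: cgcggcgagTTTGAAactgctggc (chr10:69352913-69352936, minus strand)
Ccnb2: ggcgcggtaTTTGAAtcgcggacc (chr9:70421536-70421559, minus strand)
Top2a: ctagtttcaTTTGAAcctttatct (chr11:99024198-99024221, plus strand)
Aurka: aggagaaccTTTGAAttgtaacgg (chr2:172370524-172370547, minus strand)
Mcm3: ttcccaagtTTTCCCGCcacggaagt (chr1:20820277-20820302, plus strand)
Mcm6: ttggacgggTTTGGCGCgaagtagct (chr1:128359736-128359761, minus strand)
Cdc6: cccaggcgaTTTCCCGCtctccaccg (chr11:98908004-98908029, minus strand)

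Progenitor identity genes were lower too. In bulk libraries, fewer cells of a type and less RNA per cell cannot be told apart. Of 24 apical progenitor genes, 21 fell, 9 were called lower and 0 rose (median -0.79). Vim, the intermediate filament of radial glia, read 2068, 2578 and 2326 cpm at E14.5 and 666, 738 and 719 cpm at E16.5. The E16.5 libraries were all far below the E14.5 ones (log2 fold change -1.69 ± 0.08 (SE), adjusted p = 3.99e-08). Fabp7, a fatty acid binding protein of radial glia, fell from 951 ± 126 to 334 ± 18.9 cpm (mean ± SD, n = 3 each, -1.47). The transcription factors Pax6 and Sox2 fell too, with Pax6 at -0.81 ± 0.09 and Sox2 at -0.60 ± 0.09 (99.8, 127 and 129.6 cpm at E14.5 and 81.4, 82.0 and 83.6 cpm at E16.5), both past the test but under 2-fold. Sox9, which maintains progenitors and prepares glial fates, was called lower (-1.42). Hopx, a marker of outer radial glia, gave -1.76, with 27.2% of its exonic bases in another gene.

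Intermediate progenitor genes fell in 14 of 17 cases, 4 of them called lower, while 1 rose (median -0.70). Rhbdl3, a rhomboid-family membrane protein (chr11:80300912-80355955, plus strand), was measured at 23.7, 27.0 and 26.7 cpm at E14.5 and 4.49, 4.91 and 4.54 cpm at E16.5. Its groups did not overlap (log2 fold change -2.47 ± 0.10 (SE), adjusted p = 2.09e-08). Neurog2, the proneural factor that commits cells to a glutamatergic fate, read 45.0, 40.1 and 39.6 cpm at E14.5 and 19.1, 15.9 and 15.9 cpm at E16.5, without overlap (log2 fold change -1.35 ± 0.09 (SE), adjusted p = 3.55e-07). The antiproliferative gene Btg2 changed by -1.23 and Mfng, which modifies Notch receptors, by -1.06 (-0.97 without E14.5 A and -0.998 without E16.5 C, both under the fold threshold). Eomes, the T-box factor that defines these cells, fell under 2-fold (39.2, 36.3 and 31.7 cpm at E14.5 and 27.5, 28.8 and 21.4 cpm at E16.5, log2 fold change -0.49 ± 0.11 (SE), adjusted p = 0.00311). The riser was Neurod1 (0.59 ± 0.09), which acts as intermediate progenitors turn into neurons.

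The included genes of Notch and Wnt signalling were mostly lower. Notch signalling between neighbouring cells keeps radial glia undifferentiated, and of 21 pathway genes 14 fell and 3 rose (1 called higher and 7 called lower, with a median log2 fold change of -0.55). Over all included genes, 31.3% fell and 27.5% rose. Among receptors, Notch2 changed by -1.26 and Notch1 by -1.04 (-0.87 without E14.5 B). The target gene Hey1 fell from 57.6 ± 3.62 to 22.8 ± 0.813 cpm (-1.36), and the coactivator Maml2 changed by -1.19. The ligand Jag2 went the other way, at 6.30, 6.73 and 7.14 cpm at E14.5 and 29.3, 23.8 and 28.8 cpm at E16.5. Every E16.5 library exceeded every E14.5 library (log2 fold change 2.00 ± 0.12 (SE), adjusted p = 1.59e-07). Of the Notch genes below the inclusion threshold, Heyl was called higher (2.74) and Hey2 lower (-1.56).

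Wnt pathway genes fell in 14 of 21 cases, and 4 rose, against 31.3% and 27.5% of all included genes (median -0.72). The 5 called lower were the transcription factors Tcf7l2 (-1.62) and Lef1 (-1.94, 13.7% of its exonic bases in another gene), the receptors Fzd1 (-1.54) and Fzd9 (-1.30), and the secreted antagonist Sfrp2 (-1.00, overlap 16.1%). Sfrp2 stood at the threshold and left the called set without any one of E14.5 A, E14.5 B, E16.5 A or E16.5 C (-0.96, -0.93, -0.98 and -0.95). Called higher were Lgr4, an R-spondin receptor (1.44), and Dkk3, a secreted protein of the Dickkopf family that is also an upper-layer gene (3.17). Wnt genes below the inclusion threshold had calls upward only, for Rspo2 (4.14), Lgr5 (3.37) and Dkk2 (2.69). In the FGF list, whose ligand bFGF was in the medium, 11 of 20 fell and 5 rose (median -0.28). The share that rose was near that of all included genes. Its calls were Fgfbp3, which releases FGFs from the matrix (-1.88), and the receptor Fgfr3 (-2.09, overlap 13.9%), both lower. Dusp6, a phosphatase induced by FGF signalling, fell under 2-fold (-0.79).

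Of 16 BMP genes 5 rose and 5 fell, shares near those of all included genes (27.5% rose and 31.3% fell). The exception in size was Bmp3, a BMP family member that counters BMP signalling (chr5:98854415-98884396, plus strand). Its values were 21.7, 26.9 and 25.1 cpm at E14.5 and 1.83, 1.398 and 3.04 cpm at E16.5, the deepest fall of any included gene that met the naming rule (log2 fold change -3.56 ± 0.26 (SE), adjusted p = 7.08e-07). Id2, a target that blocks basic helix-loop-helix factors, rose (0.55). Against 4.99% of all included genes, factors of early progenitors were called lower in 3 of 9 cases. These were the mRNA-binding proteins Igf2bp2 (-1.501) and Igf2bp1 (-1.06, -0.99 without E14.5 B) and the chromatin protein Hmga2 (9.79, 15.2 and 8.32 cpm at E14.5 and 2.59, 7.25 and 5.21 cpm at E16.5, -1.17). The Hmga2 call did not hold without E14.5 B (-0.87, adjusted p = 0.0529) or without E16.5 A (-0.85). Lin28b, which blocks let-7 maturation, was below the inclusion threshold at 0.658, 0.462 and 0.564 cpm at E14.5 and 0.723, 0.829 and 0.748 cpm at E16.5.

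**Figure D2:**
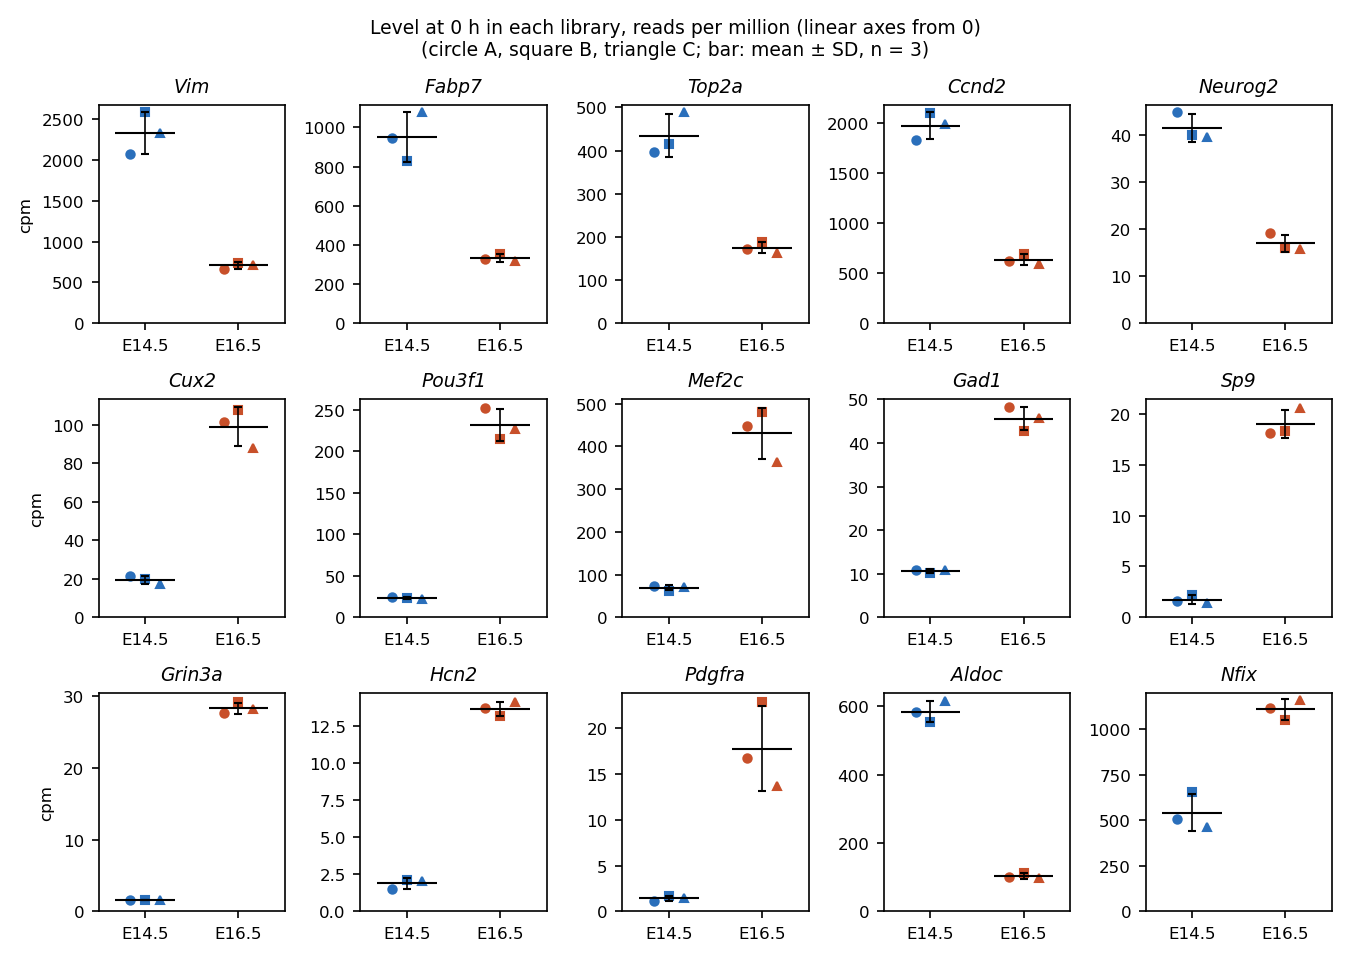
Expression at 0 h (y axis, cpm, linear from 0) of 15 named genes in each library of E14.5 and E16.5 (x axis), with bars for the mean ± SD (n = 3). The stages do not overlap in any panel, and Vim, Fabp7, Top2a, Ccnd2, Neurog2 and Aldoc were lower at E16.5 while the other 9 genes were higher.

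The targets of the integrated stress response also fell as a group. In this response, translation is slowed and the factor ATF4 turns on genes for amino acid synthesis, amino acid uptake and tRNA charging. Of 21 members, 20 fell, 12 called lower and none rose (median -1.18). Trib3, a pseudokinase that dampens the response, was measured at 26.6, 27.8 and 30.2 cpm at E14.5 and 7.08, 6.75 and 6.68 cpm at E16.5. The E16.5 libraries were close to each other (SD 0.213 cpm) and all below E14.5 (log2 fold change -2.02 ± 0.18 (SE), adjusted p = 3.07e-06). Asns, asparagine synthetase, read 575, 549.9 and 676 cpm at E14.5 and 194, 179 and 184 cpm at E16.5 (log2 fold change -1.68 ± 0.14 (SE), adjusted p = 1.38e-06). Serine synthesis was lower at its first and last steps, with Phgdh falling from 98.1 ± 6.23 to 28.8 ± 5.67 cpm (-1.76) and Psph from 171 ± 3.75 to 45.6 ± 3.38 cpm (-1.89, overlap 10.4%). Slc7a5, a transporter of large neutral amino acids, changed by -1.22, and the transcription factor Atf3 by -1.19. Cth, which makes cysteine and was named as one of the largest fallers rather than as a list member, gave 57.1, 64.5 and 80.1 cpm at E14.5 and 9.59, 8.11 and 9.24 cpm at E16.5 (log2 fold change -2.87 ± 0.14 (SE), adjusted p = 5.89e-08).

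At E11.5 the mean levels of Trib3, Asns and Psph lay between those of the later stages. Trib3 averaged 16.7 ± 5.05 cpm there, Asns 251 ± 59.0 and Psph 81.6 ± 10.3 (SD, n = 3 each). Atf3 was lowest at E11.5, at 2.13 ± 0.506 cpm, against 6.45 at E14.5 and 2.91 at E16.5. The list median from E11.5 to E14.5 was 0.81, with 5 members called higher and 0 called lower, against 8.71% and 4.76% of all included genes in that comparison. Both comparisons use the E14.5 libraries, so their values are only set side by side.

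ATF4 binds C/EBP-ATF response elements, searched as TGATGNAA on both strands. Windows were available for 20 of the 21 members, and 7 (35.0%) held the pattern, against 4.06% of all windows, 2.02% of those of included genes, 0 of the 22 mitosis windows and 1 of the 22 replication windows (4.55%). Slc7a11 (-0.61), Gars (-0.75) and Aars (-0.55) held it and were not called lower. The sites of members called lower are given with the pattern in capitals.
Trib3: ccgcccggcTGATGTAAacctgagct (chr2:152344030-152344055, plus strand)
Asns: ccagccacaTGATGAAActtcccgca (chr6:7693216-7693241, minus strand)
Chac1: tggcaggagTGATGCAAcggcaggga (chr2:119351040-119351065, minus strand)
Atf3: cggacttggTGATGCAAgtgcgagaa (chr1:191183427-191183452, plus strand)

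Cholesterol genes fell in 23 of 24 cases, 8 called lower (median -0.82). Idi1, an isomerase early in the pathway, gave 18.7, 16.49 and 16.8 cpm at E14.5 and 6.47, 6.52 and 6.89 cpm at E16.5 (log2 fold change -1.39 ± 0.10 (SE), adjusted p = 5.55e-07). Mvd and Nsdhl, which act before and after the first sterol, changed by -1.33 and -1.32, and Fdps by -1.34 (overlap 26.7%). In the wells of the same pools lysed 12 h later, 0 of these genes were called lower and the median was -0.34. Of 23 glycolysis and hypoxia genes, 0 were called higher and 3 lower, against 5.48% and 4.99% of all included genes (median log2 fold change -0.08). The calls were Aldoc, Hk2, the hexokinase of growing cells (-1.53), and Vegfa, the vascular growth factor (-1.05, -0.97 without E14.5 B). Pkm, the list's most abundant member, fell by 0.42 on the log2 scale (overlap 15.3%).

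**Figure D3:**
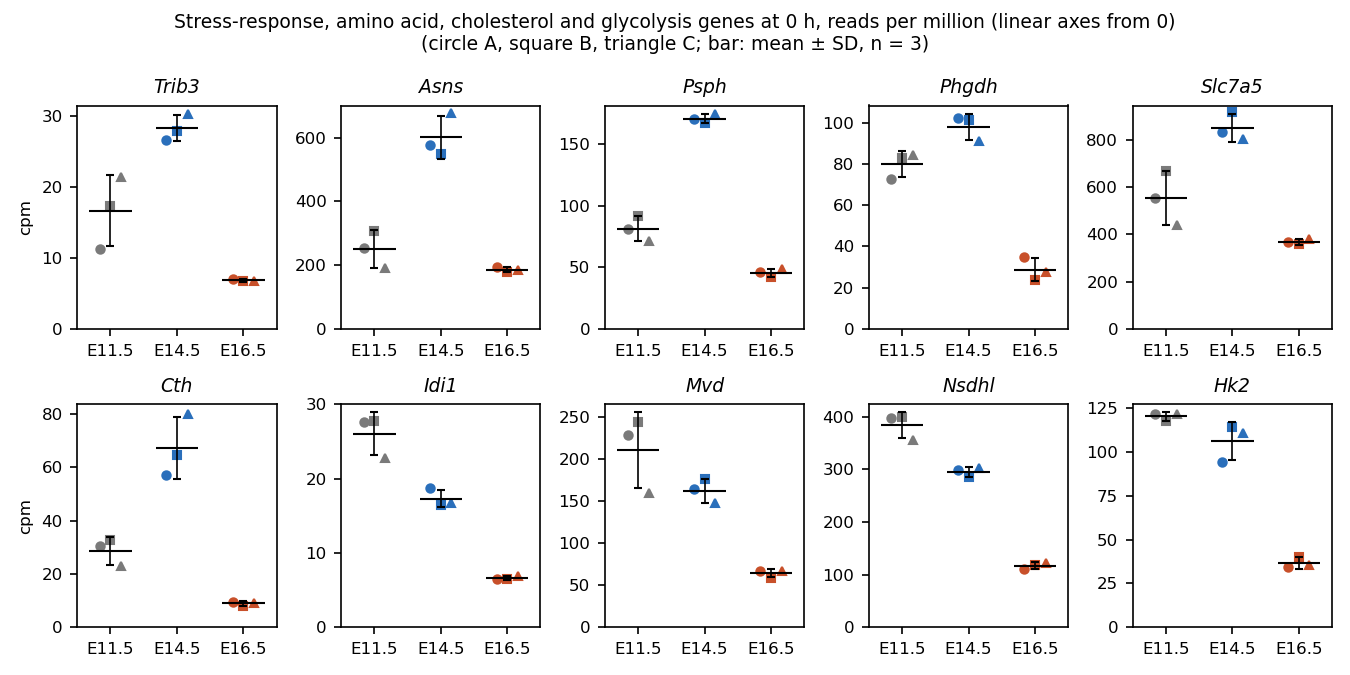
Levels at 0 h (y axis, cpm, linear from 0) of 10 genes of amino acid metabolism, stress response, cholesterol synthesis and glycolysis in each library of 3 stages (x axis), with bars for the mean ± SD (n = 3). E16.5 had the lowest mean in all 10 panels, and the stress-response genes were highest at E14.5.

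Among neurons, most upper-layer genes rose, and fewer of the deep-layer genes did. Of 22 upper-layer genes, 18 rose and 11 were called higher, against 5.48% of all included genes (median 1.03). Pou3f1, a POU factor of late-born neurons (chr4:124656807-124660655, plus strand), was measured at 24.6, 23.8 and 22.6 cpm at E14.5 and 252, 215 and 228 cpm at E16.5. E16.5 libraries were all far above E14.5 (log2 fold change 3.15 ± 0.13 (SE), adjusted p = 2.09e-08). Cux2, a homeobox factor of upper layers, read 21.3, 19.9 and 17.4 cpm at E14.5 and 102, 107 and 87.7 cpm at E16.5, without overlap (log2 fold change 2.32 ± 0.10 (SE), adjusted p = 2.49e-08). Mef2c, which acts in synapse development, rose from 69.4 ± 6.24 to 431 ± 60.02 cpm (2.64). Dkk3 changed by 3.17 (4.39, 4.35 and 4.51 cpm at E14.5 and 40.2, 37.7 and 42.5 cpm at E16.5).

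Deep-layer genes had 5 of 20 members called higher and 0 called lower. At the adjusted p alone 8 rose and 4 fell, against 27.5% and 31.3% of all included genes (median 0.15). The defining factors changed by under 2-fold or did not pass. Tbr1, of layer 6, rose by 0.31 ± 0.09 (adjusted p = 0.0158), a call of direction that was lost without E14.5 C (0.24) or E16.5 B (0.26). Bcl11b, of subcerebral neurons, read 261, 263 and 244 cpm at E14.5 and 221, 235 and 226 cpm at E16.5, a fall of 0.22 on the log2 scale (adjusted p = 0.0115) that did not pass without E16.5 A (-0.20). Fezf2, upstream of Bcl11b, gave 0.22 (adjusted p = 0.0733) with overlapping libraries, and passed without E14.5 B (0.30) or E16.5 B (0.31). Those called higher were Tcerg1l (1.81), Crym, a thyroid hormone binding protein (1.73), the cofactor Ldb2 (1.60), the cadherin Cdh10 (1.29) and the forkhead factor Foxp2 (1.26). Ldb2 was measured at 47.3, 30.0 and 38.5 cpm at E14.5 and 115, 124 and 111 cpm at E16.5, without overlap.

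The 9 subplate genes held 2 calls each way, against 5.48% called higher and 4.99% called lower among all included genes. Nr4a2, a nuclear receptor of subplate and claustral neurons, rose from 13.0 ± 1.13 to 49.8 ± 3.89 cpm (1.92), while Nxph4 (-1.57) and the lysophosphatidic acid receptor Lpar1 (-1.44) fell. Ccn2 (0.913, 1.39 and 1.83 cpm at E14.5 and 2.44, 7.13 and 3.02 cpm at E16.5) was highest in E16.5 B and was not called without it (0.92, adjusted p = 0.0678), and 23.2% of its exonic bases lie in another gene. Of 9 Cajal-Retzius genes only Clstn2, a calsyntenin that neurons more widely express, was called (1.94). Reln, the secreted signal of these cells, read 141, 155 and 155 cpm at E14.5 and 127, 103 and 197 cpm at E16.5, with overlap and no difference past the test (log2 fold change -0.08 ± 0.21 (SE), adjusted p = 0.783).

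Interneuron genes were the list with the highest median, 1.94. Of 22 members, 16 were called higher and 1 lower. Sp9, a zinc finger factor of the ganglionic eminences (chr2:73271925-73284706, plus strand), gave 1.61, 2.21 and 1.45 cpm at E14.5 and 18.1, 18.3 and 20.5 cpm at E16.5. Its E16.5 libraries were alike and far above all at E14.5 (log2 fold change 3.38 ± 0.22 (SE), adjusted p = 3.41e-07). Dlx1 and Dlx2, homeobox factors that specify these neurons, rose from 7.25 ± 0.260 to 47.9 ± 6.28 cpm (2.66) and from 8.10 ± 2.10 to 50.7 ± 1.21 cpm (2.65). Gad1 and Gad2, the enzymes that make GABA, were measured at 10.9, 10.2 and 11.0 cpm at E14.5 and 48.2, 42.8 and 45.8 cpm at E16.5 and at 7.13, 6.83 and 8.03 cpm at E14.5 and 40.1, 39.2 and 37.8 cpm at E16.5. Both were without overlap (2.10 ± 0.09 and 2.38 ± 0.17, SE, adjusted p = 2.54e-08 and 5.20e-07). Maf, a factor of interneurons from the medial eminence, changed by 2.45. The neuropeptide Sst, made by one class of these cells, rose from 59.5 ± 13.2 to 169 ± 17.9 cpm (1.48), a difference that did not pass with DESeq2 (1.52). The one call downward was Sox6 (109.8, 124 and 122 cpm at E14.5 and 57.7, 60.6 and 48.1 cpm at E16.5, -1.09), a factor that cortical progenitors express as well.

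Genes of neuronal function rose broadly. Neurotransmitter receptors and their scaffolds had 38 of 42 members rising, 26 called higher and none falling (median 1.13). Grin3a, an NMDA receptor subunit of young synapses (chr4:49661611-49845744, minus strand), was measured at 1.61, 1.58 and 1.61 cpm at E14.5 and 27.6, 29.1 and 28.3 cpm at E16.5. Replicates hardly varied and the stages did not overlap (log2 fold change 4.19 ± 0.18 (SE), adjusted p = 2.54e-08). Gabra5, a subunit of extrasynaptic GABA receptors, rose from 8.26 ± 0.815 to 64.1 ± 12.0 cpm (2.98). Grm2, a presynaptic metabotropic receptor, changed by 2.97 and Lrrtm1, a synapse organizer, by 2.41. Dlg4, the scaffold PSD-95 and the list's highest gene in cpm, did not pass the test (519, 532 and 378 cpm at E14.5 and 522, 481 and 513 cpm at E16.5, log2 fold change 0.09 ± 0.11 (SE), adjusted p = 0.530).

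Presynaptic genes rose in 24 of 32 cases, with 10 called higher (median 0.71). Rims1, of the active zone, changed by 1.74, the neurexins Nrxn3 and Nrxn2 by 1.70 and 1.55, and the synuclein Sncb by 1.49. Syt11 did not pass (-0.07, adjusted p = 0.453). Ion channels rose in 32 of 41 cases (16 called higher and 1 called lower, with a median log2 fold change of 0.88). Hcn2, a pacemaker channel, read 1.49, 2.14 and 2.04 cpm at E14.5 and 13.7, 13.1 and 14.1 cpm at E16.5, without overlap (log2 fold change 2.79 ± 0.20 (SE), adjusted p = 5.07e-07). Potassium channels of repolarization included Kcna4 (2.60) and Kcnc2 (2.24), both called higher. Cacna1e, an R-type calcium channel, was the call downward (133, 99.7 and 114 cpm at E14.5 and 36.9, 43.1 and 59.3 cpm at E16.5, -1.31), and Kcnc1 fell under 2-fold (-0.53).

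The neuronal cytoskeleton rose in 27 of 33 members and fell in 0, 7 called higher (median 0.62). Sptbn4, a spectrin of the axon initial segment, rose from 3.92 ± 0.420 to 20.4 ± 1.20 cpm (2.32), and Cdk5r2, an activator of the kinase Cdk5, changed by 1.95. The neurofilaments Nefl (2.20, overlap 32.8%) and Nefm (1.52, overlap 19.2%) were called higher with less certain reads. Map1b, a microtubule protein at over 2000 cpm in each library, gave 0.28 (adjusted p = 0.0551). Axon guidance genes rose in 23 of 41 cases and fell in 4, against 27.5% and 31.3% of all included genes, with a median of 0.34. Of them 4 were called higher and 1 lower, against 5.48% and 4.99%. Called higher were the netrin receptor Unc5c (1.02, 1.15 and 1.23 cpm at E14.5 and 11.9, 12.7 and 11.4 cpm at E16.5, 3.40), the Slit receptor Robo2 (1.37), Epha7 (1.27) and the semaphorin Sema7a (1.09). Dcc, the netrin receptor for attraction, was called lower (340.3, 346 and 295 cpm at E14.5 and 142, 139 and 169 cpm at E16.5, log2 fold change -1.12 ± 0.15 (SE), adjusted p = 7.42e-05).

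Many adhesion and secretion genes rose. Of 24 cadherins, 14 rose and 4 fell, against 27.5% and 31.3% of all included genes, with 6 called higher (4 without E16.5 B). Cdh8 rose from 12.0 ± 1.92 to 63.8 ± 2.42 cpm (2.42), Pcdh8 changed by 1.66 and Pcdh7 by 2.29 (overlap 21.1%), whereas Pcdh11x was called lower (-1.31). Cdh2, N-cadherin of the ventricular junctions, gave -0.08 (adjusted p = 0.347). Neuropeptides and growth factors rose in 10 of 14 cases. Adcyap1, which encodes the peptide PACAP, read 2.76, 2.67 and 3.01 cpm at E14.5 and 15.5, 12.4 and 13.2 cpm at E16.5 (log2 fold change 2.24 ± 0.13 (SE), adjusted p = 1.33e-07), and the secretory granule protein Scg2 changed by 1.79 and Npy by 1.52.

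Glial genes did not move as a block. In the astrocyte list, 10 of 24 members rose and 10 fell, against 27.5% and 31.3% of all included genes (median -0.20). Of the list, 4 were called higher and 5 lower, against 5.48% and 4.99%. Some members, among them Sox9 and Slc1a3, are also on the apical progenitor list. The part of radial glia in these changes was not tested. Aldoc, aldolase C (chr11:78322968-78327781, plus strand), was measured at 583, 552 and 614 cpm at E14.5 and 100.3, 113 and 96.9 cpm at E16.5. All E16.5 libraries were far below E14.5 (log2 fold change -2.47 ± 0.07 (SE), adjusted p = 5.08e-09). Fgfr3 (-2.09), Sox9 (-1.42), the gap junction protein Gja1 (-1.38) and Ndrg2 (-1.01, but -0.98, -0.94 and -0.99 when E14.5 C, E16.5 A or E16.5 B, respectively, was left out) were the other members called lower. Genes called higher included Sparcl1, a secreted synaptogenic protein (15.0, 22.7 and 22.2 cpm at E14.5 and 67.5, 74.4 and 75.6 cpm at E16.5, log2 fold change 1.88 ± 0.14 (SE), adjusted p = 8.35e-07), the bicarbonate transporter Slc4a4 (1.61) and the folate enzyme Aldh1l1 (1.29, overlap 13.4%). The glutamate transporter Slc1a3 fell (-0.59) and the lipid carrier Apoe rose (0.55), each under 2-fold. The mature markers Gfap (0.679, 1.39 and 1.21 cpm at E14.5 and 0.761, 0.877 and 2.83 cpm at E16.5) and Aqp4 (0.807, 0.462 and 0.617 cpm at E14.5 and 0.304, 1.07 and 0.454 cpm at E16.5) were below the inclusion threshold and passed no test (adjusted p = 0.525 and 0.942), and S100b was at most 0.190 cpm.

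In the oligodendrocyte list, 5 of 14 members were called higher and 1 lower, against 5.48% and 4.99% of all included genes. At the adjusted p alone 6 rose and 4 fell, against 27.5% and 31.3% (median 0.30). Pdgfra, the receptor that defines oligodendrocyte precursors (chr5:75152292-75198215, plus strand), read 1.17, 1.68 and 1.42 cpm at E14.5 and 16.8, 22.8 and 13.7 cpm at E16.5. All E16.5 libraries were above E14.5, with some spread among them (log2 fold change 3.79 ± 0.22 (SE), adjusted p = 1.24e-07). Egfr, a receptor of late and gliogenic progenitors, gave 26.6, 32.4 and 31.0 cpm at E14.5 and 70.7, 83.5 and 57.0 cpm at E16.5, without overlap (log2 fold change 1.26 ± 0.16 (SE), adjusted p = 5.16e-05). The proteoglycans Cspg4 (NG2) and Cspg5 changed by 1.44 and 1.28, and Lhfpl3 by 1.96 (overlap 17.6%). Matn4, a matrix protein, was called lower (-2.16), with E14.5 B at 11.7 cpm and its other E14.5 libraries at 4.95 and 3.89. The lineage factor Olig2 did not differ past the test (115, 177 and 125 cpm at E14.5 and 121, 126 and 115 cpm at E16.5, log2 fold change -0.24 ± 0.15 (SE), adjusted p = 0.230), nor did Olig1 (-0.41, adjusted p = 0.0728), although Olig1 passed without E14.5 C (-0.58), with a replicate block (-0.37) and at 12 h (-0.61). In the 12 h wells the change of Egfr was -0.38, the opposite direction, that of Pdgfra was 1.39, and Cspg4 no longer passed (0.14). Whether the changes at 0 h and 12 h differ was not tested.

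Factors of the gliogenic switch were mixed, 12 of 18 falling and 3 rising, against 31.3% and 27.5% of all included genes. The nuclear factor I genes, which turn progenitors towards astrocytes, differed among themselves. Nfia read 347, 374 and 335 cpm at E14.5 and 177, 185 and 191 cpm at E16.5 (log2 fold change -0.91 ± 0.07 (SE), adjusted p = 6.69e-07), and Nfib fell as well (-0.68). Nfix gave 509, 654 and 461 cpm at E14.5 and 1115, 1048 and 1161 cpm at E16.5, without overlap (log2 fold change 1.02 ± 0.11 (SE), adjusted p = 1.49e-05), with 0.98 without E14.5 A, 0.93 without E14.5 C and 0.99 without E16.5 C. The other calls of included genes, all lower, were the mRNA decay factor Zfp36l1 (-1.57, overlap 55.9%), Sox9, the neuregulin receptor Erbb2 (-1.29) and Atf3. Zbtb20 (1.76) and Runx2 (3.38), of the same list but below the inclusion threshold, were called higher in the fit. Gfap, Lif and Ctf1, also below it, were not called.

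Among 32 chromatin regulators, 2 were called higher and 3 lower, against 5.48% and 4.99% of all included genes, which is 1 or 2 genes in a list of this size. As background, subunits of BAF chromatin remodelling complexes differ between progenitors and neurons. Phf10 (-1.05) and Ss18 (-1.04, -0.99 without E14.5 C or E16.5 A), of the progenitor form, were called lower, and Actl6b, of the neuronal form, higher (32.8, 29.5 and 24.0 cpm at E14.5 and 66.6, 57.7 and 55.1 cpm at E16.5, 1.07, 0.95 without E14.5 C and 0.997 without E16.5 A). Chd5, a remodeller of neurons, rose from 25.2 ± 0.772 to 101 ± 3.43 cpm (log2 fold change 1.99 ± 0.07 (SE), adjusted p = 1.57e-08), and Uhrf1, which maintains DNA methylation in dividing cells, was called lower (-1.17). The core ATPase Smarca4 did not pass (0.07, adjusted p = 0.380). Immediate early genes, which neuronal activity and growth factors induce, had 3 calls up (Egr2 1.80, Egr3 1.47, Junb 1.18) and 4 down (Klf4 -1.23, Btg2, Atf3 and Arc) among 20 members. At the adjusted p alone 10 rose and 4 fell, against 27.5% and 31.3% of all included genes. Npas4, Fosb, Egr4 and Klf2, of the same list but below the inclusion threshold, were called higher in the fit, and Fosl1, also below it, was not. Arc, a synaptic regulator, read 132, 171 and 118 cpm at E14.5 and 67.1, 57.6 and 60.9 cpm at E16.5 and so went against the Egr genes (log2 fold change -1.17 ± 0.13 (SE), adjusted p = 1.19e-05). The p53 targets, which respond to DNA damage, had 12 of 19 members that did not pass and a median of -0.03. Of these targets 2 rose and 5 fell, against 27.5% and 31.3% of all included genes. Their calls were Bbc3 up (1.18, 0.999 without E14.5 C), Perp up, Sesn2 down (-1.18) and Btg2 down, of which Perp (1.08, 1.55 and 1.32 cpm at E14.5 and 2.09, 5.996 and 1.55 cpm at E16.5) was 0.54 without E16.5 B (adjusted p = 0.107) and did not pass without E14.5 A (adjusted p = 0.0625) or E14.5 C (adjusted p = 0.0529).

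Matrix genes had 5 of 21 members called higher and 0 lower, against 5.48% and 4.99% of all included genes. At the adjusted p alone 8 rose and 2 fell, against 27.5% and 31.3%. Thbs1, an astrocyte-secreted thrombospondin, rose from 16.4 ± 0.751 to 57.6 ± 7.02 cpm (1.84). The basement membrane collagens Col4a1 and Col4a2 changed by 1.46 and 1.63, and without E16.5 B, their highest library, by 1.18 and 1.41. Sparcl1 and Cspg5 were the remaining calls. Tnc, a matrix protein of radial glia, did not pass (559.5, 800.5 and 692 cpm at E14.5 and 573, 604 and 567 cpm at E16.5, adjusted p = 0.107).

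The largest single rises outside these lists included Trpc4, a calcium-permeable channel (chr3:54156035-54318471, plus strand), at 1.19, 1.19 and 0.939 cpm at E14.5 and 38.4, 32.5 and 29.5 cpm at E16.5. Among the included genes named here it had the largest log2 fold change (log2 fold change 4.89 ± 0.30 (SE), adjusted p = 1.91e-07). Ccbe1, a secreted protein of lymphatic growth that cortical neurons also express, read 1.25, 1.32 and 1.10 cpm at E14.5 and 26.5, 31.6 and 28.2 cpm at E16.5 (log2 fold change 4.50 ± 0.20 (SE), adjusted p = 3.44e-08). Plppr5, of a family that shapes neurites, and Nrgn, a calmodulin-binding protein of dendritic spines, changed by 3.63 and 3.49. Of the pseudogenes, Rps3a3 (2.76, 3.66 and 3.01 cpm at E14.5 and 41.2, 127 and 73.0 cpm at E16.5) and Gm1821 (4.71, 28.6 and 4.88 cpm at E14.5 and 134, 131 and 138 cpm at E16.5) ranked as high, the first varying most at E16.5 and the second at E14.5. At E11.5 they averaged 75.6 ± 12.1 and 95.3 ± 4.89 cpm (SD, n = 3 each), so both had their lowest mean at E14.5. Reads of near-identical genes cannot be told apart from theirs. The largest falls outside the lists were Cth (above), Ttc39b (166, 131 and 146 cpm at E14.5 and 21.9, 21.5 and 27.5 cpm at E16.5, log2 fold change -2.66 ± 0.13 (SE), adjusted p = 4.61e-08), Kcnn4, a calcium-activated potassium channel (-2.77), Shisa3 (-2.31) and the collagen receptor Ddr2 (-2.29). The long noncoding RNA Gm19554 (-2.32) and the pseudogene Gm11258 (6.81, 31.6 and 41.3 cpm at E14.5 and 4.68, 5.05 and 4.81 cpm at E16.5) completed the list.

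Genes of cells outside the neural lineage were few and low. Of 23 microglia genes, 7 passed the threshold, and the whole list summed to 42.0 to 52.7 cpm at E14.5 and 42.7 to 58.6 cpm at E16.5. Lyz2, the macrophage lysozyme, was called lower (-1.32, -0.98 and adjusted p = 0.0517 without E14.5 C). The endothelial list summed to 1031 to 1126 cpm at E14.5 and 487 to 504 cpm at E16.5. Most of this was Slc7a5, and Cldn5, Pecam1 and Cdh5, which define these cells, were each under 1 cpm in all 6 libraries. Its other call was Mfsd2a, a lipid transporter (-1.02, -0.98 without E14.5 B or E16.5 A). Erythroid genes summed to 90.8 to 149 cpm at E14.5 and 87.8 to 208 at E16.5, and 0 of 3 members passed the test in either direction. The 3 members changed by 0.34 to 0.50 at 0 h. At 12 h all 3 were called higher, where 5.45% of included genes were.

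Fibroblast and mural genes were touched by E16.5 B. The meningeal list summed to 119 to 141 cpm at E14.5 and 185 to 256 at E16.5, highest in E16.5 B. Cxcl12, a chemokine of the meninges and of other cells, was called higher (3.50, 2.94 and 5.18 cpm at E14.5 and 15.98, 13.5 and 20.4 cpm at E16.5, log2 fold change 2.13 ± 0.29 (SE), adjusted p = 8.18e-05) and was as large without that library (2.25). Col3a1 (1.19) and Col6a3 (1.08) were not called without E16.5 B (0.51 and 0.71), nor was Acta2, the smooth muscle actin (1.09 against 0.66). Col3a1 did not pass without E14.5 A (1.07) or E14.5 B (1.10) either, nor Acta2 without E14.5 B (1.03) or E14.5 C (1.04). Lum, Col6a2, Col6a1 and Twist1, of the meningeal list but below the inclusion threshold, were called higher. They stayed so without E16.5 B (2.30, 2.26, 1.27 and 1.51). Col1a2 and Postn were called higher only with that library (0.28 and 0.96 without it), and Crabp2 was called lower in both fits. Foxj1, of ciliated ependyma, rose (0.87) and did not pass without E16.5 B (0.57), E14.5 B (0.86) or E14.5 C (0.76).

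The wells lysed 2, 4, 8 and 12 h after uridine came from the same pools and so repeat the measurement on the same cells rather than on new embryos. At 12 h, 578 of the 722 genes called higher and 409 of the 657 called lower were called in the same direction, where 5.45% and 3.95% of the included genes were called in all. Opposite signs were found for 1 and 4 of them. List medians at 12 h were -1.14 for mitosis, -1.13 for stress response targets, 0.96 for upper-layer genes and 1.74 for interneuron genes. The medians that moved most in the plot over chase time were those of cholesterol genes, towards 0, and of the oligodendrocyte list, from 0.30 to -0.28.

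**Figure D4:**
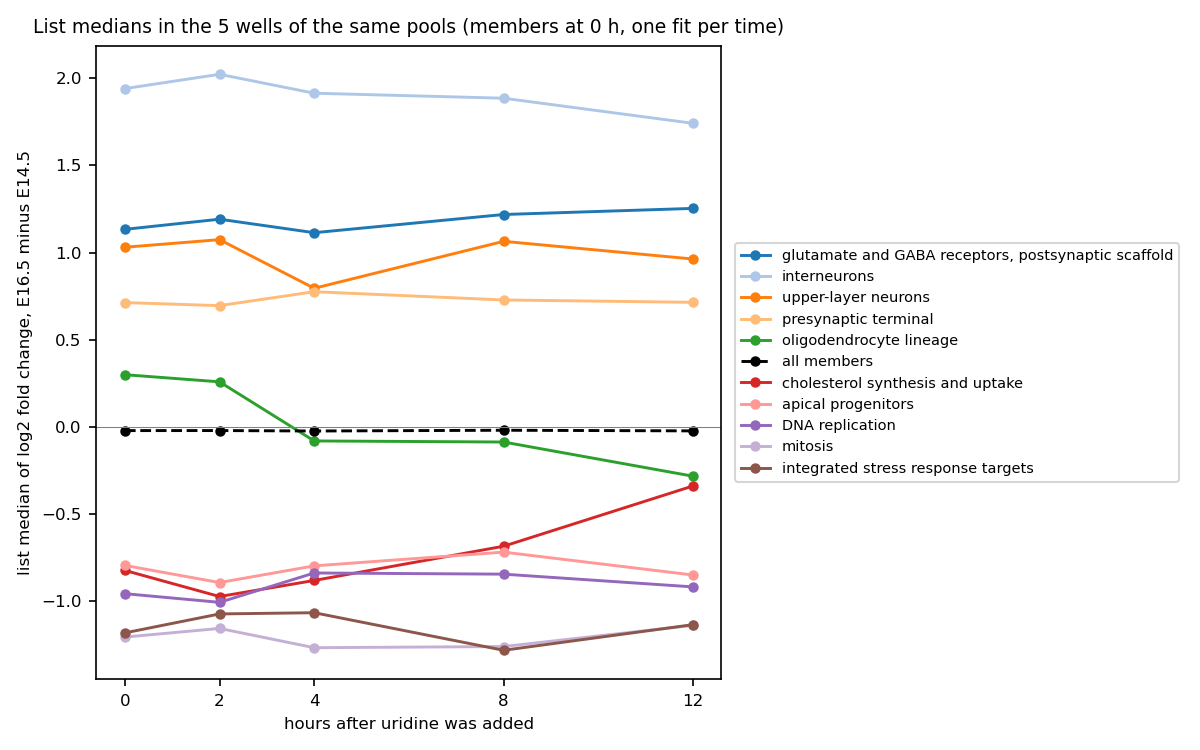
Median log2 fold change (y axis, E16.5 minus E14.5) of 10 lists and of all included genes at the 5 chase times (x axis, hours after uridine), each from its own fit of 3 against 3 libraries. Neuronal lists stay above 0 and cell-cycle, progenitor and stress lists below, while the oligodendrocyte list crosses 0.

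Set beside the step from E11.5 to E14.5, which shares the E14.5 libraries, the lists differed in their medians. From E11.5, 8.71% of the included genes were called higher and 4.76% lower. Mitosis genes had a median of -0.26 in that step with no calls, against 22 calls from E14.5 to E16.5. Receptor genes had 1.25 and 1.13 in the successive steps, interneuron genes 0.59 and 1.94. Of single genes, Bmp3 averaged 0.355 cpm at E11.5, so that its mean was highest at E14.5 of the 3 stages. Egfr stood at 2.93 ± 0.592 cpm at E11.5, Pdgfra at 6.93 ± 1.31 and Grin3a at 4.81 ± 1.36 (SD, n = 3 each).

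RNA half-lives were fitted from the fall of the T-to-C conversion rate over the chase, scaled to its value at 0 h. The comparison did not use conversion rates, but their denominator is covered Ts, which it did use. Whether changes of level over the chase moved the half-lives was not tested. They were available at both stages for 10287 of the 13164 included genes, 429 of the 722 called higher and 458 of the 657 called lower. At E14.5 the replicate medians averaged 4.94 ± 0.171 h for genes called higher, 4.02 ± 0.182 h for genes called lower and 4.55 ± 0.194 h for all (SD, n = 3 each). The corresponding values at E16.5 were 3.29 ± 0.0594, 3.66 ± 0.109 and 3.39 ± 0.0736 h. Among genes with a half-life at both stages, those called higher were thus the longer-lived at E14.5 in all 3 replicates and the shorter-lived at E16.5 in all 3. Genes called higher without one, such as Trpc4 and Grin3a, are not covered. Genes are not replicates, so no test was made.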

How the data were processed

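Alignment and T-to-C counting were done by the authors with SlamDunk (version 0.4.3) on mm10, over exons of GENCODE release 24. They deposited covered Ts as raw counts, expression as cpm over all their reads, and T-to-C conversion rates as a fraction. Read filters and multimapping are not given in the sources used here. Covered-T counts were tested with edgeR 4.0.16 (glmQLFit, TMM) in R 4.3.3, in a fit of the 9 libraries at 0 h, over 19416 genes with more than 10 covered Ts in all 6 compared. One read adds several covered Ts, so counting intervals are not given. In all 6, 100% of cpm values were whole reads within 0.01 reads. Symbols, coordinates and exon overlaps come from GENCODE release 21 (51678 of 53491 identifiers, 96.6%). On simulated data over 19416 genes, with spread estimated from these data, edgeR recovered 198 of 200 changed genes. The changed genes were drawn from the included genes, with changes all past the fold threshold. Changes near the threshold, or in other genes, were not simulated.

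Half-lives are ln(2)/k from exp(-kx), kept where covered Ts exceeded 500 at all times, under 24 h, R2 over 0.6, in all 3 replicates. Named were the 10 largest rises and falls among calls without replicate or exonic overlap, up to 4 calls and the highest-cpm member of each of 38 lists, stage markers, and every gene of a count of 5 or fewer. Some genes that the rule names are not reported here. Genes and lists were chosen with earlier results of these data known. Alternatives are DESeq2 1.42.0, limma 3.58.1, other scaling, filters and membership, a replicate block, later chase times and leaving out each replicate. Letters did not pair: deviations of same-lettered libraries correlated at 0.15 (A), -0.12 (B) and -0.05 (C).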

Additional observations from a re-analysis of the deposited data

How the results depend on the processing

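Counts of 722 higher and 657 lower genes moved beyond 1.5 times under a stricter threshold (glmTreat against a log2 fold change of 1), which gave 333 and 236, and, for higher genes, when more than 2000 covered Ts were asked for, which gave 448 over 10768 genes, since fewer genes were counted. All other alternatives gave 605 to 773 higher and 448 to 688 lower, and leaving out each replicate gave 678 to 769 and 628 to 698. With the letters as a replicate block, although they did not pair the libraries, 724 genes were called higher and 653 lower. Whole reads recovered from cpm gave 760 and 632 calls. Of 38 lists, 19 to 22 had a median above 0 under the alternatives, against 20. Medians that turned sign were those of Cajal-Retzius genes (0.38 at 12 h), the oligodendrocyte list (-0.28 at 12 h), glycolysis and hypoxia (0.0835 at 12 h) and p53 targets (0.00121 with DESeq2, 0.00123 with RLE factors, -0.19 to 0.0106 without single replicates). Among 196 named genes, 165 kept direction and side of the test throughout. Signs turned at 12 h for Plk2 (-0.0870), Cdh2 (0.00963), Reln (0.0136), Apoe (-0.19) and Egfr (-0.38). Without single replicates they turned for Reln (-0.39 to 0.10), Hbb-bs (-0.0198 to 0.67), Dlg4 (-0.0561 to 0.18), Gfap (-0.44 to 0.70) and Aqp4 (-0.85 to 0.28), none of which passed the test at 0 h in any of these fits. The causes were not tested. With 3 pools a stage, dissociation time, label content and age cannot be told apart.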

Other observations

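Genes under the inclusion threshold showed changes that the counts above leave out. Of 6252 such genes tested, 626 were called higher and 434 lower at E16.5 by edgeR. Several rose from near 0, chosen here after their values were seen. Nts, which encodes neurotensin, read 0.0425, 0.0660 and 0.0805 cpm at E14.5 and 7.69, 4.27 and 18.2 cpm at E16.5 (log2 fold change 7.52 ± 0.54 (SE), adjusted p = 5.90e-07). Gpr17, a receptor of committed oligodendrocyte precursors, gave 0.0849, 0.165 and 0.0537 cpm at E14.5 and 5.18, 5.28 and 3.07 cpm at E16.5 (log2 fold change 5.50 ± 0.46 (SE), adjusted p = 1.58e-06), and Sox10, the factor of that lineage, 0.0849, 0.0660 and 0.0805 cpm at E14.5 and 2.70, 3.48 and 1.87 cpm at E16.5 (log2 fold change 4.96 ± 0.50 (SE), adjusted p = 7.11e-06). Adarb2, of interneurons from the caudal eminence, read 0.722, 0.297 and 0.403 cpm at E14.5 and 9.44, 12.0 and 10.7 cpm at E16.5 and Npas4, induced by neuronal activity, 0.255, 0.0989 and 0.188 cpm at E14.5 and 4.57, 4.60 and 3.45 cpm at E16.5. The serotonin receptor Htr1a (5.61), the neuropeptide Y receptor Npy1r (5.15) and the dopamine receptor Drd2 (0.0425, 0.198 and 0.0805 cpm at E14.5 and 2.89, 2.28 and 3.18 cpm at E16.5) were called higher as well. The BMP antagonist Grem1 went from 0.641 ± 0.170 to 13.8 ± 1.56 cpm (mean ± SD, n = 3 each).

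Downward, F2rl2, a protease-activated receptor, read 52.3, 75.6 and 47.0 cpm at E14.5 and 0.190, 0.0711 and 0.187 cpm at E16.5 (log2 fold change -8.77 ± 0.41 (SE), adjusted p = 3.99e-08). The embryonic globins Hbb-y (20.1, 11.0 and 18.9 cpm at E14.5 and 0.0761, 0.0237 and 0.427 cpm at E16.5) and Hba-x (5.01, 3.36 and 3.01 cpm at E14.5 and 0.114, 0.166 and 0.107 cpm at E16.5) were called lower. So was the adult alpha globin Hba-a2 (2.23, 1.65 and 2.68 cpm at E14.5 and 0.571, 0.687 and 0.908 cpm at E16.5, log2 fold change -1.54). The 3 included erythroid genes had log2 fold changes of 0.34 to 0.50, none past the test. How the counting divided reads of similar globin genes is not given in the sources used here. The adult beta globin Hbb-bs overlapped between stages (68.1, 42.4 and 84.6 cpm at E14.5 and 53.6, 73.9 and 131 cpm at E16.5, adjusted p = 0.284). Neurog1, a proneural factor beside Neurog2, read 4.14, 2.54 and 1.99 cpm at E14.5 and 0.0761, 0.261 and 0.0801 cpm at E16.5 (log2 fold change -4.41 ± 0.52 (SE), adjusted p = 2.35e-05). Ngfr, the neurotrophin receptor p75, fell from 13.3 ± 0.189 to 1.62 ± 0.304 cpm (-3.08).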
